A study of Mus musculus with 6 samples.

Results

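Clade B serpins are serine protease inhibitor-type proteins, and the mouse genome carries them in clusters with several closely related copies. Their expression was followed through chemically induced skin carcinogenesis in 27 gene models, which were all the rows named Serpinb in a deposited table of 23726 models. By name they fell into 4 Serpinb3 copies, 5 Serpinb6 copies, 7 Serpinb9 copies, 3 Serpinb1 copies and 8 single-copy members. The 12 models on chromosome 1 lay within chr1:108757757-109505555 and the 15 models on chromosome 13 within chr13:32933961-34094663 (mm9).

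RNA was sequenced from 6 mouse libraries. A biopsy of healthy skin, biopsies of papilloma 1 and papilloma 2, which the labels call distinct, and a tumour biopsy gave 1 library each. The papillomas and the tumour had been induced with DMBA and TPA, a carcinogen and a tumour-promoting phorbol ester. The remaining libraries were of the squamous carcinoma cells mSCC-38, described as highly tumorigenic, and mSCC-20, described as non-tumorigenic, both isolated from DMBA/TPA tumour. The labels give no strain, sex, age or dose, and do not say whether the papillomas came from separate mice, whether the skin had been treated, or whether the cell populations came from the tumour that was sequenced. The only group with replicates was papilloma, so all p-values measure the spread between 2 papilloma libraries, which may be technical, and assume that skin and tumour vary as they do. In biopsies, fewer cells of a type and less RNA per cell cannot be told apart.

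A serpin offers an exposed loop to a protease as bait, and when the loop is cut the inhibitor changes shape and traps the enzyme. Clade B members lack a classical secretion signal and act mostly inside cells, where they are known for protecting epithelial and immune cells from their own or neighbouring cells' proteases. In epidermis several of them are made in the differentiating layers, and 1 of them, Serpinb2, is a textbook target of phorbol esters.

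Phorbol esters act partly through the transcription factor AP-1, whose recognition sequence was therefore looked for in the promoters. RefSeq promoter windows (GRCm38.p6, 250 bases before to 50 after the annotated start) were matched for 25 of the 27 members, all but Serpinb1a and Serpinb13. The motif TGANTCA, a palindrome apart from its middle base and searched on both strands, was present in 7 of these 25 members (28.0%) and in 8.97% of the 27025 genes with a window. All 7 were single-copy members of chromosome 1, which is every single-copy member with a window; none of the 18 copies of Serpinb1, Serpinb3, Serpinb6 or Serpinb9 held it. The stricter TGAGTCA, contained in TGANTCA and read on either strand, was found in 2 members (8.0%), Serpinb7 and Serpinb8, against 5.95% of all genes. A match is a description of these letters and not a bound site. The stretch around the nearest match before the start is shown for each of the 7, with the motif in capitals, because these members differed widely in how they changed.
Serpinb2: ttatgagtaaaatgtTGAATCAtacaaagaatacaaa (chr1:107511314-107511350, plus strand)
Serpinb5: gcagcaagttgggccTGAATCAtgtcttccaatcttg (chr1:106861020-106861056, plus strand)
Serpinb7: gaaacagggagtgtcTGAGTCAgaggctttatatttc (chr1:107422629-107422665, plus strand)
Serpinb8: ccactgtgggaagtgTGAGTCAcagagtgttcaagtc (chr1:107589968-107590004, plus strand)
Serpinb10-ps: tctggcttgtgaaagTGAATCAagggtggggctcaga (chr1:107528934-107528970, plus strand)
Serpinb11: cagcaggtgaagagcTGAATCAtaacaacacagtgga (chr1:107362223-107362259, plus strand)
Serpinb12: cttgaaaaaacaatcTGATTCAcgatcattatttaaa (chr1:106934389-106934425, plus strand)

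The tandem copies raise another question, whether their reads can be told apart. Across the annotated transcripts (GENCODE M21, GRCm38), 15 of the 27 members had at least 90% of their 35-base windows to themselves. The exceptions included all 4 Serpinb3 copies, at 70.7% to 76.4%, and Serpinb9e, Serpinb9g and Serpinb9f, at 58.2%, 34.97% and 14.6%. Serpinb9f shared 48.8% of its windows with Serpinb9g. No member carried the same counts as another gene model, but values of these copies are uncertain one by one and were also summed. The 100 bases before the start are shown for the copies that were detected in the tumour and nearly nowhere else, with capitals marking bases that differ from Serpinb9f in the aligned windows. Over the whole windows, Serpinb9e was 99.3% and Serpinb9g 95.8% identical to Serpinb9f, over 285 and 289 aligned bases. The window of Serpinb9d, not printed, was 91.6% identical to that of Serpinb9f over 285 aligned bases. Yet Serpinb9d had only 3 counts in the tumour, so a similar promoter window did not go with a similar level.
Serpinb9f: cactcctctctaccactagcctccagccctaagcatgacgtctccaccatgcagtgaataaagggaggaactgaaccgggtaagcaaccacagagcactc (chr13:33323977-33324076, plus strand)
Serpinb9e: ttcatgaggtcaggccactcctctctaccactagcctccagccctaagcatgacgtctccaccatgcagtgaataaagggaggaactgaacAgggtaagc (chr13:33249508-33249607, plus strand)
Serpinb9g: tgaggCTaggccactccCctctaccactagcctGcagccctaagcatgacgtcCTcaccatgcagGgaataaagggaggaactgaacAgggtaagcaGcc (chr13:33484690-33484789, plus strand)

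The libraries held between 25140489 counts (papilloma 1) and 42992597 counts (tumour), and RNA integrity numbers from 7.5 in skin to 9.6 in mSCC-38. Levels are given as CPM, counts per 1000000 counts, scaled by TMM factors, and a count of 0 allows up to 3 counts, or 0.0604 to 0.141 CPM depending on the library; such limits and all intervals on count ratios cover counting error only. Papilloma 2 stood apart in hair genes. The 5 hair root sheath and shaft markers summed to 16721 CPM in skin, 27.8 CPM in papilloma 1, 4946 CPM in papilloma 2 and 24.7 CPM in the tumour. Basal keratinocyte markers were abundant in every library, from 6368 summed CPM in skin to 34330 in papilloma 1, and in mSCC-38 and mSCC-20 they summed to 8788 and 17567 CPM. The 5 suprabasal markers summed to 7891 CPM in skin, 25756 and 21613 in the papillomas, 464 in the tumour, 45.5 in mSCC-38 and 205 in mSCC-20. As a measure of trace signal, 17 hair genes that reached 500 CPM in skin had a median of 0.0440% to 0.0669% of their skin level in papilloma 1, the tumour and both cultures, with upper quartiles of at most 0.0892%.

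In edgeR's quasi-likelihood test over the 4 biopsies, 26 of the 27 members entered the fit of 16353 models, with p-values adjusted over all of them by Benjamini-Hochberg and a threshold of 0.05. In papillomas against skin, 10 members were called higher, where 12.0% of all models were, and 3 were called lower, where 14.1% were. In the tumour against the papillomas, 7 members were called higher, where 11.9% of all models were, and 9 lower, where 10.6% were. Of the 7, Serpinb9e, Serpinb9f and Serpinb9g entered the fit through the tumour library alone and could only be called higher. At an unadjusted p under 0.05 the counts were 13 and 3 in the papilloma comparison and 9 and 11 in the tumour comparison. The comparisons share the papilloma libraries, so their values are not independent. Errors of log2 fold changes below are standard errors derived from the F statistic.

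Among the 13 members with at least 10 CPM in papilloma or skin, the median log2 CPM ratio of papilloma over skin was 2.09, against 0.07 over 10830 models. The median ratio of tumour over papilloma was -0.37 for 17 members, against 0.04 over 10415 models. Counted by size, 7 of the 13 were at least 4-fold higher in papillomas than in skin, as were 3.61% of all models, and 1 was lower, as were 5.09%. In the tumour, 5 of the 17 were at least 4-fold higher than in papillomas, as were 2.67% of all models, and 5 were lower, as were 5.12%. Serpinb9e, Serpinb9f and Serpinb9g, among the higher ones, reached 10 CPM in the tumour alone. Between papilloma 2 and papilloma 1, 0 of 13 members differed by 4-fold in either direction, where 1.09% of all models were higher in papilloma 2 and 0.0904% lower.

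Calls were also counted by chromosome; the difference between the clusters was not tested. Over all models, 12.0% were called higher and 14.1% lower in papillomas against skin, and 11.9% higher and 10.6% lower in the tumour against papillomas. On chromosome 1, with 12 members in the fit, 6 were higher and 1 lower in papillomas against skin, and 1 was higher and 6 lower in the tumour against papillomas. On chromosome 13, with 14 in the fit, 4 were higher and 2 lower in papillomas, and 6 were higher and 3 lower in the tumour. The 6 include Serpinb9e, Serpinb9f and Serpinb9g, which entered the fit through the tumour alone.

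**Figure D1:**
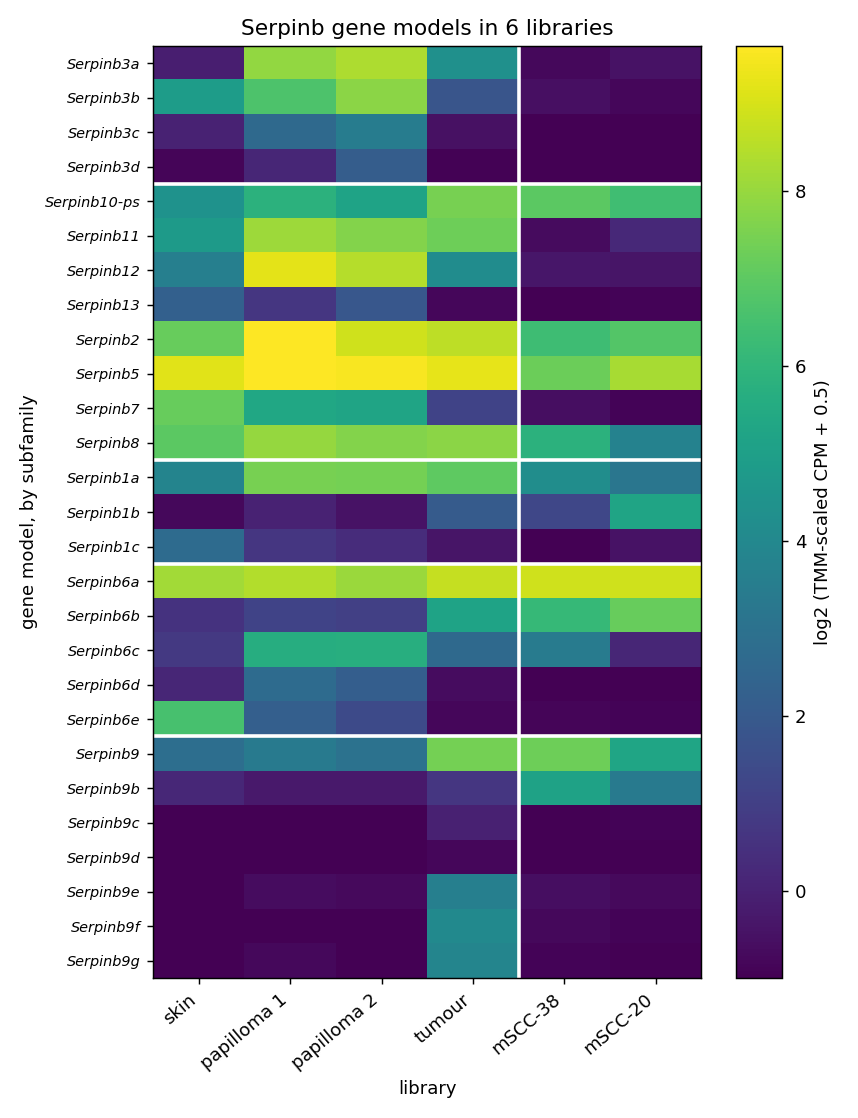
Expression of the 27 Serpinb gene models (rows, grouped by subfamily) in the 6 libraries (columns), as log2 of TMM-scaled CPM with 0.5 added; the vertical line separates biopsies from cultures. Serpinb3a and Serpinb3b are bright in the papillomas, and Serpinb9, Serpinb9e, Serpinb9f and Serpinb9g brighten in the tumour. Serpinb7 and Serpinb6e are brightest in skin.

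The Serpinb3 copies are the mouse relatives of the human squamous cell carcinoma antigens SERPINB3 and SERPINB4, inhibitors of cysteine and chymotrypsin-like proteases of squamous epithelium. Serpinb3a had 0.422 CPM in skin, 241 and 322 CPM in the papillomas, 20.01 CPM in the tumour, and 0.0905 and 0.227 CPM in mSCC-38 and mSCC-20. It rose in papillomas against skin by a log2 fold change of 9.37 ± 0.40 (adjusted p = 0.00383), the largest among the members. The skin value rests on 21 counts, and the pooled papilloma counts were 679 times higher (95% exact interval 444 to 1097). The skin level was 0.131% of that in papilloma 2, close to the trace signal of hair genes. In the tumour against papillomas Serpinb3a fell by 3.82 ± 0.30 on the log2 scale (adjusted p = 0.00374), yet the tumour level was 47.4 times that of skin (30.8 to 76.9).

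Serpinb3b had 29.2 CPM in skin, 102 and 224 CPM in the papillomas, 2.97 CPM in the tumour, and 0.181 and 0.0649 CPM in mSCC-38 and mSCC-20. It rose in papillomas (log2 fold change 2.49 ± 0.54, adjusted p = 0.0339), a call that was lost with DESeq2 size factors (adjusted p = 0.0561) and with total counts (0.0675). It fell in the tumour, where the log2 fold change was -5.78 ± 0.66 (adjusted p = 0.00782) and the level lay below that of skin. Serpinb3c had 0.523 CPM in skin, 5.72 and 10.6 CPM in the papillomas, 0.190 CPM in the tumour and no count in either culture. It rose by 3.96 ± 0.60 in papillomas (adjusted p = 0.0166) and its log2 fold change was -5.41 ± 0.68 in the tumour (adjusted p = 0.00968). Serpinb3d stayed below 4 CPM in all libraries and was not called in either comparison.

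The leading copy was not the same in all tissues. In deposited RPKM, which divides by gene length, Serpinb3a had 0.310 and Serpinb3b 21.7 in skin. In the papillomas Serpinb3a had 127 and 189 RPKM and Serpinb3b 53.5 and 131 RPKM, and in the tumour Serpinb3a had 12.2 and Serpinb3b 1.80 RPKM. A sum over the 4 copies is less exposed to how shared reads were split among them. How reads matching several copies were handled is not given in the sources used here. The subfamily sum was 30.2 CPM in skin, 349 and 560 CPM in the papillomas, 23.2 CPM in the tumour and under 0.3 CPM in the cultures. The sum rose in papillomas (log2 fold change 3.92 ± 0.41, adjusted p = 0.00906) and fell by 4.30 ± 0.42 in the tumour (adjusted p = 0.00605). The 5 suprabasal keratinocyte markers moved in the same directions: 3 of 5 rose in papillomas against skin and 5 of 5 fell in the tumour against papillomas. Over all models, 12.0% rose in papillomas and 10.6% fell in the tumour. Other keratinocyte markers moved too. Of the 5 stress markers (Krt6a, Krt6b, Krt16, Krt17 and Sprr1b), 4 rose and 0 fell in papillomas, and 2 fell and 0 rose in the tumour. The part of either list in the Serpinb3 result was not tested.

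Serpinb12 and Serpinb11, inhibitors of trypsin-like proteases in biochemical assays, both rose in papillomas, and their tumour levels lay apart. Serpinb12 had 11.7 CPM in skin, 590.0 and 357 CPM in the papillomas, 17.6 CPM in the tumour, and 0.272 and 0.260 CPM in mSCC-38 and mSCC-20. It rose by 5.35 ± 0.47 in papillomas (adjusted p = 0.00681) and had a log2 fold change of -4.75 ± 0.45 in the tumour against papillomas (adjusted p = 0.00534). The tumour level was 1.51 times that of skin (1.35 to 1.69). Serpinb11 had 27.5 CPM in skin, 273 and 205 CPM in the papillomas, 159 CPM in the tumour, and 0.121 and 0.682 CPM in mSCC-38 and mSCC-20. It rose in papillomas by 3.12 ± 0.29 (adjusted p = 0.00756), and in the tumour its log2 fold change of -0.59 ± 0.25 did not pass the test (adjusted p = 0.156). The tumour level remained 5.78 times that of skin (5.45 to 6.13). In mSCC-38 and mSCC-20 the 9 and 8 counts of Serpinb12 were 0.0460% and 0.0440% of its papilloma 1 level, within the trace signal of hair genes. The 4 counts of Serpinb11 in mSCC-38 were also within it, and the 21 counts in mSCC-20, at 0.250% of its papilloma 1 level, were above it.

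Serpinb2 is plasminogen activator inhibitor 2, an inhibitor of urokinase. It had 146 CPM in skin, 782 and 465 CPM in the papillomas, 384 CPM in the tumour, and 81.7 and 110 CPM in mSCC-38 and mSCC-20. It rose in papillomas by 2.10 ± 0.41 (adjusted p = 0.0267), with both papillomas above skin, and its log2 fold change in the tumour was -0.70 ± 0.38 (adjusted p = 0.239). Serpinb8, which in human inhibits the proprotein convertase furin, had 123 CPM in skin, 250.3 and 205 CPM in the papillomas, 225 CPM in the tumour, 57.1 CPM in mSCC-38 and 12.6 CPM in mSCC-20. Its log2 fold change in papillomas was 0.89 ± 0.23 (adjusted p = 0.05004), a value just past the threshold that passed with no filter on low counts, with DESeq2 and with all 6 libraries in the fit. The tumour level of Serpinb8 lay between those of the papillomas.

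Serpinb5, or maspin, a non-inhibitory member long studied as a tumour suppressor of epithelia, was not called in either comparison. It had 575 CPM in skin, 804 and 758 CPM in the papillomas, 603 CPM in the tumour, and 152 and 303 CPM in mSCC-38 and mSCC-20. Neither the papilloma log2 fold change of 0.45 ± 0.25 (adjusted p = 0.222) nor the tumour value of -0.38 ± 0.24 (adjusted p = 0.312) passed the test. By RPKM it was the highest member in skin, papilloma 2 and the tumour, with 271, 282 and 233 RPKM. Serpinb2 led in papilloma 1 with 328 RPKM, and Serpinb6a in mSCC-38 and mSCC-20 with 272 and 254 RPKM.

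Serpinb7 (megsin), whose human gene is mutated in Nagashima-type palmoplantar keratosis, went the other way. It had 143 CPM in skin, 40.1 and 36.7 CPM in the papillomas, 1.73 CPM in the tumour, and 0.151 and 0.0325 CPM in mSCC-38 and mSCC-20. It fell by 1.89 ± 0.15 in papillomas (adjusted p = 0.00578) and had a log2 fold change of -4.47 ± 0.20 in the tumour against papillomas (adjusted p = 0.00205). The Serpinb7 levels of papilloma 1 and papilloma 2 lay close together, and their hair markers summed to 27.8 and 4946 CPM; the part of hair content in the fall was not tested. Serpinb13, an inhibitor of cathepsins L and K in human, stayed below 10 CPM and was called in the tumour against papillomas with a log2 fold change of -4.87 ± 1.04 (adjusted p = 0.0336). This rests on 3 tumour counts, a count ratio of 0.0310 (95% exact interval 0.00630 to 0.0929), and the call was lost with DESeq2 size factors (0.0542) and total counts (0.0573).

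Serpinb10-ps, listed as a pseudogene in the table and matched to RefSeq's Serpinb10, whose human protein bomapin is made in blood-forming cells, was the only chromosome 1 member called higher in the tumour. It had 21.1 CPM in skin, 56.5 and 35.6 CPM in the papillomas, 178 CPM in the tumour, and 124 and 82.2 CPM in mSCC-38 and mSCC-20. It rose in the tumour against papillomas by 1.94 ± 0.29 (adjusted p = 0.0144), and its papilloma log2 fold change of 1.13 ± 0.32 did not pass (adjusted p = 0.0595), though it did with no filter on low counts and with DESeq2. In the annotation it shared 15.6% of its 1397 windows of 35 bases with Serpinb2. Those transcripts cover only a part of the counted model, which is 3482 bases long. The part of shared reads in its values was not tested.

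**Figure D2:**
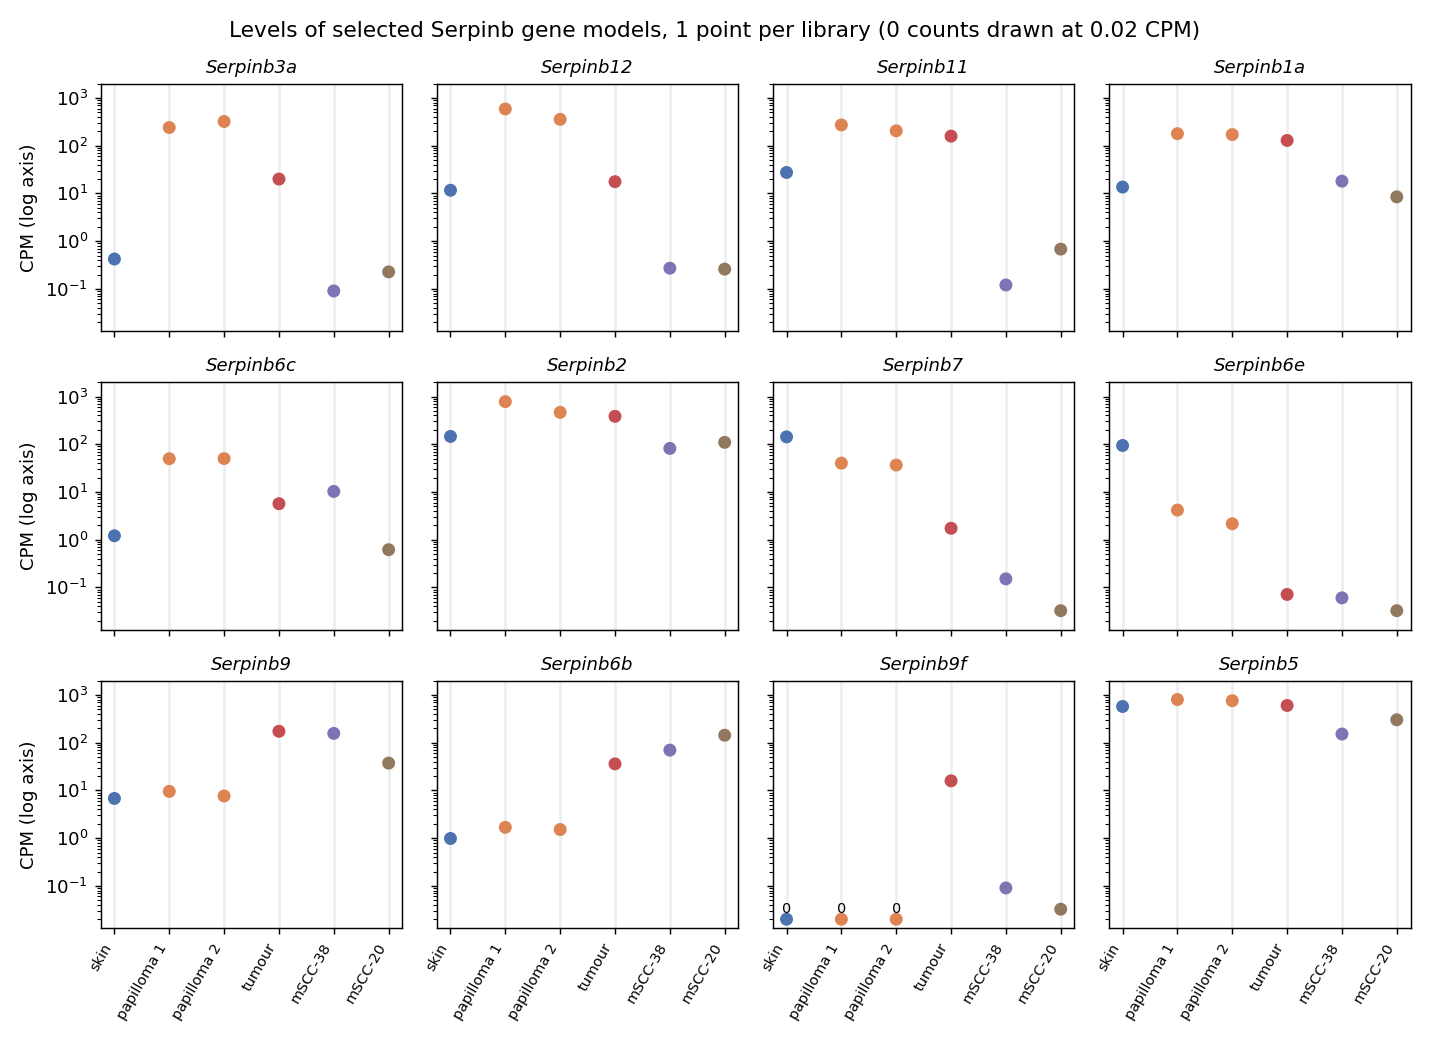
Levels of 12 Serpinb gene models in TMM-scaled CPM on a log axis, with 1 point for each library and counts of 0 drawn at 0.02 CPM. Serpinb3a and Serpinb12 peak in both papillomas, Serpinb11 and Serpinb1a stay high in the tumour, Serpinb7 and Serpinb6e are highest in skin, and Serpinb9, Serpinb6b and Serpinb9f are low in all biopsies but the tumour.

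On chromosome 13, Serpinb1a encodes the inhibitor of neutrophil elastase, cathepsin G and proteinase 3 that is abundant in neutrophils and also made by epithelia. It had 13.6 CPM in skin, 179 and 171 CPM in the papillomas, 129 CPM in the tumour, and 18.1 and 8.47 CPM in mSCC-38 and mSCC-20. It rose in papillomas by 3.69 ± 0.21 (adjusted p = 0.00419), with a mean of 175 ± 5.19 CPM (SD, n = 2), and its tumour log2 fold change of -0.45 ± 0.18 did not pass (adjusted p = 0.139). Of the 5 measured neutrophil markers, 4 rose with it in papillomas. They summed to 28.8 CPM in skin and to 2845 and 3823 CPM in the papillomas. In the tumour they summed to 1099 CPM, and in the cultures to at most 3.83 CPM. Most of each papilloma sum came from S100a9 (1607.5 and 2002.3 CPM) and S100a8 (1195.8 and 1774.3 CPM). In the tumour against papillomas the markers were split, with 2 called higher and 2 lower. Csf3r and Mmp8 had log2 fold changes of 2.62 and 2.79, and S100a9 and S100a8 of -1.22 and -2.54. Csf3r and Mmp8 were at 0 in mSCC-38 and Mmp8 in mSCC-20, where Serpinb1a was still counted. The other markers were counted there too, at low levels. In mSCC-38 and mSCC-20, S100a8 had 83 and 39 counts, S100a9 had 19 and 64, and Cxcr2 had 7 and 14. The markers' part in the biopsy result was not tested.

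The other Serpinb1 copies had their own courses. Serpinb1b had 0.0805 CPM in skin, 0.516 and 0.212 CPM in the papillomas, 3.68 CPM in the tumour, 1.93 CPM in mSCC-38 and 36.4 CPM in mSCC-20. It rose in the tumour against papillomas by 3.36 ± 0.62 (adjusted p = 0.0240). Serpinb1c stayed below 10 CPM and fell in papillomas, with a log2 fold change of -2.68 ± 0.43 (adjusted p = 0.0181). In mSCC-20 the leading copy by RPKM was Serpinb1b with 21.2, against 4.42 for Serpinb1a, whereas in every other library Serpinb1a led.

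Within the Serpinb6 subfamily the abundant Serpinb6a, which was not called, stood beside copies called in both directions. Serpinb6a, a broadly expressed inhibitor that acts on cathepsin G, had 285 CPM in skin, 345 and 267 CPM in the papillomas, 425 CPM in the tumour, and 473 and 478 CPM in mSCC-38 and mSCC-20. Its log2 fold changes of 0.11 ± 0.26 in papillomas (adjusted p = 0.772) and 0.47 ± 0.25 in the tumour (adjusted p = 0.238) did not pass. Serpinb6a overlaps the oppositely oriented genes Nqo2 and 1110046J04Rik, and whether counting used strand is not given in the sources used here. Serpinb6c had 1.21 CPM in skin, 49.7 and 50.04 CPM in the papillomas, 5.67 CPM in the tumour, and 10.3 and 0.617 CPM in mSCC-38 and mSCC-20. It rose in papillomas by 5.37 ± 0.21 (adjusted p = 0.00383), with 49.9 ± 0.249 CPM (SD, n = 2), and its tumour log2 fold change was -3.14 ± 0.18 (adjusted p = 0.00227).

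Serpinb6b, which in mouse inhibits granzyme A of cytotoxic lymphocytes, rose in the tumour, where Serpinb6c fell. It had 0.986 CPM in skin, 1.69 and 1.52 CPM in the papillomas, 36.0 CPM in the tumour, and 70.0 and 144 CPM in mSCC-38 and mSCC-20. It rose in the tumour against papillomas by 4.48 ± 0.25 (adjusted p = 0.00227), and its papilloma log2 fold change was 0.70 ± 0.27 (adjusted p = 0.118). Both cultures lay above the tumour. Serpinb6e had 94.2 CPM in skin, 4.17 and 2.15 CPM in the papillomas, 0.0712 CPM in the tumour, and 0.0603 and 0.0325 CPM in mSCC-38 and mSCC-20. It fell by 4.91 ± 0.38 in papillomas (adjusted p = 0.00578) and its tumour log2 fold change of -5.40 ± 0.67 (adjusted p = 0.00936) rests on 3 tumour counts, a level within the trace signal of hair genes. The count ratio of tumour over pooled papillomas was 0.0236 (0.00481 to 0.0702). Serpinb6e was below skin in both papillomas, whose hair markers differed as given for Serpinb7, and the part of hair content was not tested.

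Serpinb6d stayed below 10 CPM; it rose in papillomas by 3.07 ± 0.51 (adjusted p = 0.0198) and its tumour log2 fold change was -5.13 ± 0.62 (adjusted p = 0.00887). The Serpinb6 sum, of which Serpinb6a made 74.6% to 91.0% of the CPM, did not pass the test in either comparison. It was 382 CPM in skin, 407 and 325 CPM in the papillomas, 467 CPM in the tumour, and 554 and 623 CPM in mSCC-38 and mSCC-20. The summed log2 fold changes were -0.06 in papillomas (adjusted p = 0.875) and 0.35 in the tumour (adjusted p = 0.358).

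Of the 6 Serpinb9 copies in the fit, 4 were called higher in the tumour against papillomas, where 11.9% of all models were. Serpinb9c, Serpinb9e, Serpinb9f and Serpinb9g entered the fit through the tumour library alone. They could only be called higher here, so the count and the share over all models are not a like comparison. Among the 4 called, Serpinb9e, Serpinb9f and Serpinb9g share much transcript sequence, as given above, so their calls are not separate observations. Serpinb9 is the inhibitor of granzyme B, the protease by which cytotoxic lymphocytes kill target cells. It had 6.80 CPM in skin, 9.56 and 7.66 CPM in the papillomas, 174 CPM in the tumour, and 157 and 37.4 CPM in mSCC-38 and mSCC-20. It rose in the tumour against papillomas by 4.33 ± 0.18 (adjusted p = 0.00205), and its papilloma log2 fold change of 0.34 ± 0.19 did not pass (adjusted p = 0.227). Tumour and papilloma levels were far apart, and each culture lay above each papilloma.

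Serpinb9f had no count in skin or either papilloma, 15.9 CPM (670 counts) in the tumour, and 0.0905 and 0.0325 CPM in mSCC-38 and mSCC-20. Against the limit of 3 counts over both papillomas together, it was at least 263-fold higher in the tumour (adjusted p = 0.00430). Serpinb9g had no count in skin and papilloma 2, 0.0938 CPM in papilloma 1, 13.9 CPM in the tumour, 0.0302 CPM in mSCC-38 and none in mSCC-20. Its tumour counts exceeded the 2 pooled papilloma counts 346 times (95.3 to 2863), with an adjusted p of 0.00534 in edgeR and 0.342 in DESeq2. Serpinb9e had no count in skin, 0.141 and 0.106 CPM in the papillomas, 11.7 CPM in the tumour, and 0.151 and 0.0974 CPM in mSCC-38 and mSCC-20. It was 96.6 times higher in the tumour than in the pooled papillomas (44.1 to 265; adjusted p = 0.00284).

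These 3 copies, whose promoters are printed above, were thus counted in the tumour and at no more than 0.151 CPM in any other library. Serpinb9f and Serpinb9g had most of their 35-base windows in common with other transcripts and Serpinb9e a smaller part, so how far each one contributes cannot be told from the table. Serpinb9e also passed the test in papillomas against skin (adjusted p = 0.0438) on 3 counts in each papilloma and none in skin, which is within the limit of a zero count, and the call was lost with DESeq2 (0.0791), DESeq2 size factors (0.0538) and total counts (0.0580). Serpinb9c had 21 counts in the tumour and 1 in mSCC-20 and was at least 8.2-fold higher in the tumour than the papillomas' pooled limit (adjusted p = 0.0545), and Serpinb9d, the member that did not enter the fit, had 3 counts in the tumour alone. Serpinb9b, which in mouse inhibits granzyme M, was low in every biopsy, with 0.624 CPM in skin, 0.328 and 0.318 CPM in the papillomas and 1.12 CPM in the tumour, and reached 34.5 and 9.97 CPM in mSCC-38 and mSCC-20. Its tumour log2 fold change of 1.77 ± 0.57 did not pass (adjusted p = 0.0870).

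As a sum, the Serpinb9 copies had 7.42 CPM in skin, 10.1 and 8.09 CPM in the papillomas, 217 CPM in the tumour, and 192 and 47.5 CPM in mSCC-38 and mSCC-20. The sum rose in the tumour against papillomas by 4.57 ± 0.19 (adjusted p = 0.00212). In papillomas against skin its log2 CPM ratio was 0.28, and -0.13 with total counts. T and NK cell markers also differed: the 7, of which Gzmb is also in the protease list below, summed to 18.4 CPM in skin, 7.22 and 4.80 CPM in the papillomas and 25.4 CPM in the tumour, and 3 of 7 rose in the tumour against papillomas. All 7 were at 0 in both cultures, where Serpinb9 had 157 and 37.4 CPM and Serpinb6b 70.0 and 144 CPM. Their part in the biopsy result was not tested.

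**Figure D3:**
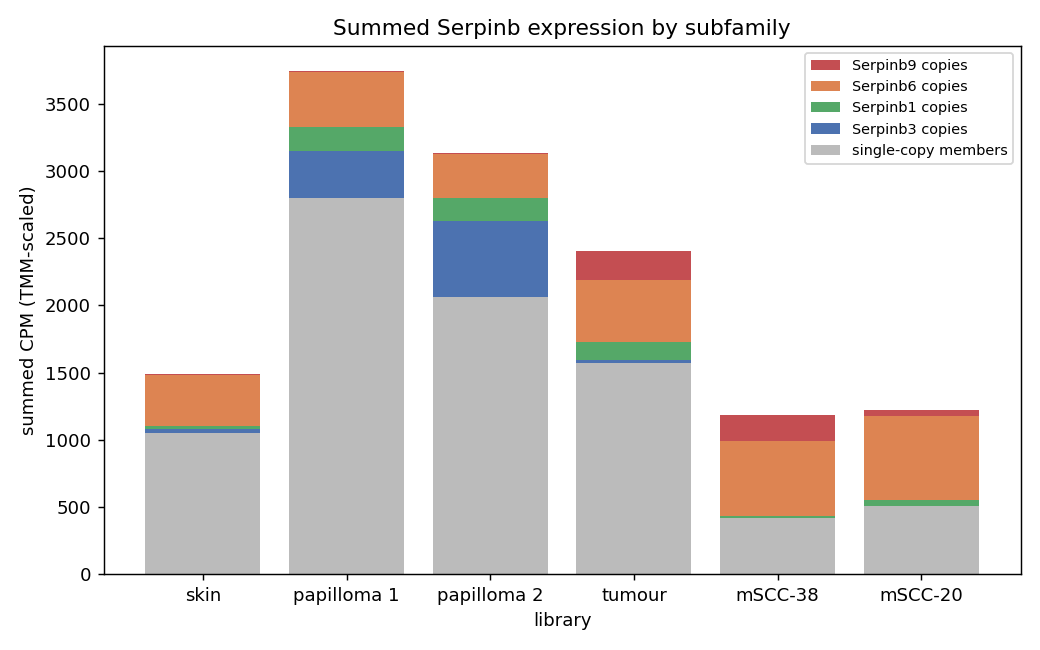
Summed TMM-scaled CPM of the 27 Serpinb gene models by subfamily, 1 stacked bar for each library. The total is highest in the papillomas (3743 and 3131 CPM), the Serpinb3 segment is wide only there, and the Serpinb9 segment is visible in the tumour (217 CPM), mSCC-38 (192 CPM) and mSCC-20 (47.5 CPM).

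All members together had 1490.1 CPM in skin, 3743 and 3131 CPM in the papillomas, 2408 CPM in the tumour, and 1181 and 1224 CPM in mSCC-38 and mSCC-20. The chromosome 1 cluster supplied 72.5% of this in skin, 84.0% and 83.9% in the papillomas, 66.1% in the tumour, and 35.2% and 41.5% in mSCC-38 and mSCC-20. Its summed log2 CPM ratio was 1.42 in papillomas against skin and -0.86 in the tumour against papillomas. The chromosome 13 cluster had 409 CPM in skin, 597 and 505 CPM in the papillomas, 817 CPM in the tumour, and 765 and 715 CPM in mSCC-38 and mSCC-20. Its log2 ratio in the tumour against papillomas was 0.57, and in papillomas against skin 0.43, which became 0.00 with total counts and -0.03 with summed RPKM.

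Genes of other families next to the clusters were examined within 1 Mb. All 6 neighbours of the chromosome 1 cluster lay before its first member, with none inside it or beyond its last. Of these neighbours, 5 reached 10 CPM in a library. In papillomas against skin the log2 CPM ratios of the 5 lay between -1.29 and 0.71, and in the tumour against papillomas between 0.28 and 1.18. None of the 5 passed 4-fold in either comparison. Few models did in the whole series: 3.61% were higher and 5.09% lower in papillomas, and 2.67% higher and 5.12% lower in the tumour. With 5 neighbours, none past 4-fold is near those shares. Of the Serpinb members of the cluster, Serpinb2, Serpinb3a, Serpinb3b, Serpinb11 and Serpinb12 were past 4-fold higher in papillomas against skin. Serpinb3a, Serpinb3b, Serpinb7 and Serpinb12 were past 4-fold lower in the tumour against papillomas. The other models of chromosome 1 had a median log2 ratio of 0.60 in the tumour against papillomas (n = 630); its part in the values of the chromosome 1 members was not tested. Around the chromosome 13 cluster, 11 of 18 neighbours reached 10 CPM in papillomas or skin. The number was also 11 in the tumour or papillomas, though not all were the same genes. Tubb2b, a tubulin gene, was more than 4-fold higher in papillomas than in skin (log2 ratio 2.02). Mylk4, a kinase gene of muscle, was more than 4-fold lower there (-3.63). Tubb2a was more than 4-fold lower in the tumour than in papillomas (-2.12). The 5 skeletal muscle markers, which do not include Mylk4, all fell in papillomas against skin as well, and their part in its change was not tested.

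**Figure D4:**
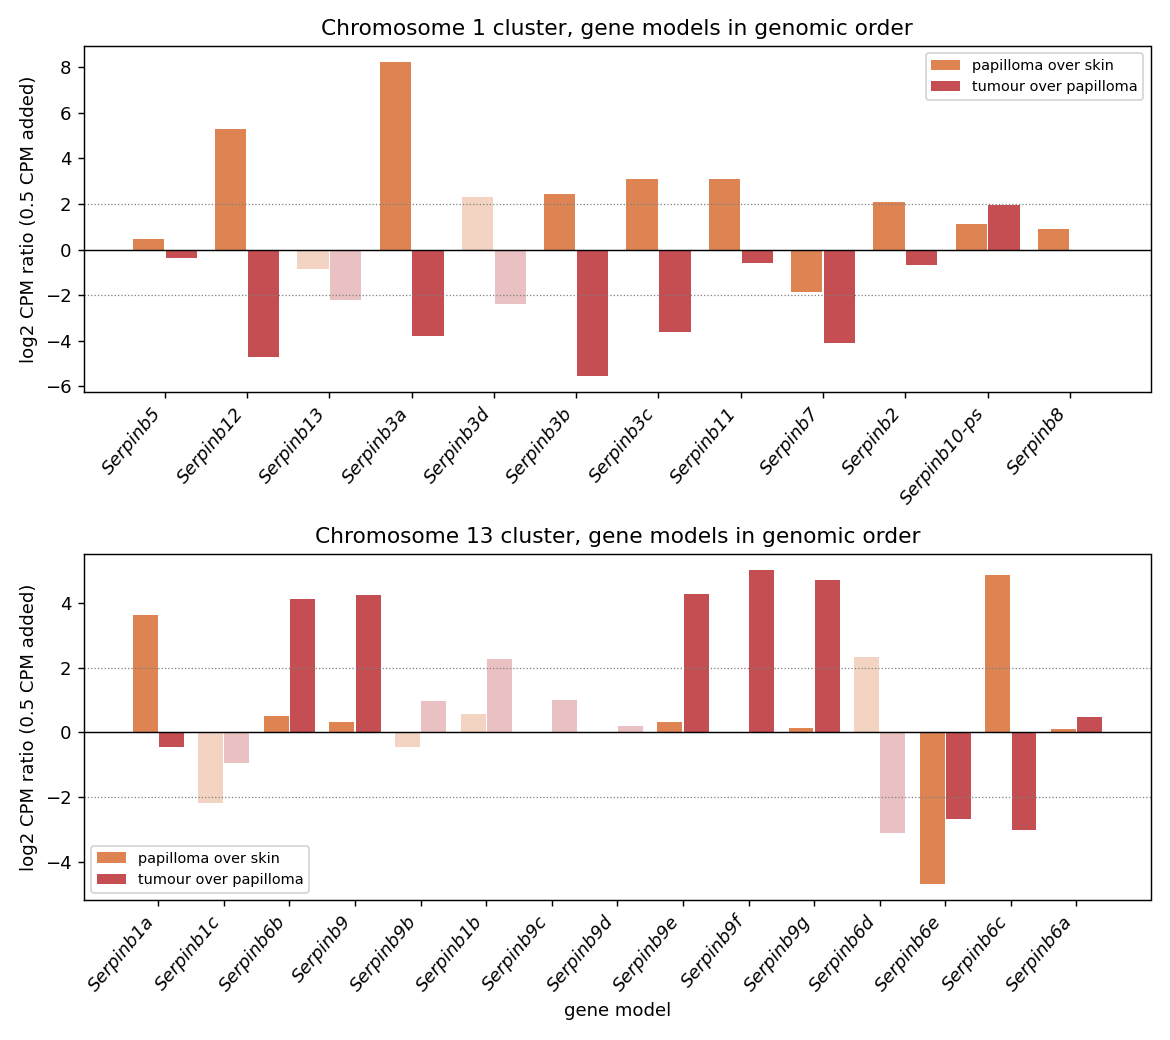
Log2 CPM ratios (0.5 CPM added) of papilloma over skin and of tumour over papilloma for the members of each cluster in genomic order; faint bars mark members below 10 CPM in all biopsies and dotted lines a 4-fold difference. Tall papilloma bars stand on chromosome 1 at Serpinb3a and Serpinb12 beside low ones at Serpinb5 and Serpinb7, and on chromosome 13 the tumour bars of Serpinb6b, Serpinb9, Serpinb9e, Serpinb9f and Serpinb9g exceed 4-fold.

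The tumour was also set directly against skin, with 1 library a side and so without a test. Among 17 members with at least 10 CPM in tumour or skin, 9 were at least 4-fold higher in the tumour, as were 5.23% of all such models, and 3 were at least 4-fold lower, as were 9.11%. The median log2 ratio of the 17 was 2.51, against 0.11 over all models. Higher were Serpinb3a and Serpinb11, given above, Serpinb6b at 36.6 times the skin level (95% exact interval 27.5 to 49.6), Serpinb9 at 25.5 times (22.9 to 28.5), Serpinb1a at 9.48 times (8.75 to 10.3) and Serpinb10-ps at 8.44 times (7.91 to 9.02). Serpinb9f, Serpinb9g and Serpinb9e, with no count in skin, were at least 263.5-fold, 230.9-fold and 193.5-fold higher against a limit of 3 counts in skin. Lower were Serpinb6e, at 0.000756 times the skin level on 3 tumour counts (0.000156 to 0.00221), Serpinb7, whose tumour level was 0.0122 times that of skin (0.00952 to 0.0153), and Serpinb3b, at 0.102 times (0.0840 to 0.122).

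Between the cultures the comparison was again of single libraries. Of 11 members with at least 10 CPM in mSCC-38 or mSCC-20, 3 were at least 4-fold higher in mSCC-38, as were 6.84% of all such models, and 1 was at least 4-fold lower, as were 3.28%. Serpinb9 was 4.20 times higher in mSCC-38 than in mSCC-20 (3.94 to 4.48). Serpinb8 was 4.55 times higher (4.07 to 5.09). Serpinb6c was 16.6 times higher (10.5 to 28.0), at 10.3 CPM in mSCC-38, and dropped below 10 CPM with DESeq2 size factors. Serpinb1b was lower in mSCC-38, at 0.0530 times its mSCC-20 level (0.0405 to 0.0682). Serpinb5 and Serpinb6b in mSCC-38 were at 0.502 and 0.487 times their mSCC-20 levels, and Serpinb6a at 0.990 times (0.968 to 1.01). Among the clusters' neighbours, Bcl2, an inhibitor of apoptosis next to the chromosome 1 cluster, had 26.2 CPM in mSCC-38 and 5.88 CPM in mSCC-20 (log2 ratio 2.06). Gmds, a gene of fucose synthesis near the chromosome 13 cluster, had 7.72 CPM in mSCC-38 and 36.9 CPM in mSCC-20 (-2.19).

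Several members that were highest in papillomas, and Serpinb6e and Serpinb7, which were highest in skin, were at trace level in a culture or both. Serpinb12, Serpinb3b and Serpinb3a were within the trace signal of hair genes in both cultures, at no more than 0.0892% of their highest library, as were Serpinb6e in both, Serpinb11 in mSCC-38 and Serpinb7 in mSCC-20. Against the tumour, 8 of 16 members at 10 CPM were at least 4-fold lower in mSCC-38, as were 10.4% of all models, and 1, Serpinb9b, was higher, as were 2.85%. In mSCC-20, 9 of 15 were lower, against 14.4% of all models, and 1, Serpinb1b, was higher, against 6.05%. A culture was set against a biopsy of mixed cells here, and the 5 suprabasal markers summed to 45.5 and 205 CPM in mSCC-38 and mSCC-20 and to 464 CPM in the tumour; their part in these counts was not tested.

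A list of 20 proteases, known or possible targets of clade B serpins, of which 18 entered the fit, was described beside the inhibitors. In papillomas against skin 9 were called higher and 0 lower, with a median log2 fold change of 0.92, and in the tumour against papillomas 4 were higher and 5 lower, with a median of -0.12. Over all models the medians were -0.06 and -0.02, with 12.0% called higher and 14.1% lower in the papilloma comparison and 11.9% higher and 10.6% lower in the tumour comparison. The kallikreins Klk8 and Klk7, proteases of the cornifying epidermis, rose in papillomas. Klk8 had 1033 and 798 CPM in the papillomas and 39.0 CPM in skin (log2 fold change 4.56 ± 0.35, adjusted p = 0.00578), and Klk7 had 2271 and 2877 CPM in the papillomas and 512 CPM in skin (2.34 ± 0.34, adjusted p = 0.0158). Furin, the target of human SERPINB8, rose by 1.42 ± 0.21 (adjusted p = 0.0167).

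In the tumour, Klk5 and Klk7 fell against papillomas, with log2 fold changes of -7.16 ± 0.28 (adjusted p = 0.00205) and -4.79 ± 0.40 (adjusted p = 0.00424). Granzyme genes were low. Gzmb, the target of Serpinb9, had 6.17 CPM in the tumour and 0.891 and 0.883 CPM in the papillomas, and rose by 2.79 ± 0.39 (adjusted p = 0.0123); it had also risen in papillomas, by 2.13 ± 0.51 (adjusted p = 0.0421) against 0.201 CPM in skin. Gzma, the target of Serpinb6b, had 1.09 CPM in the tumour and 0.0469 and 0.106 CPM in the papillomas (3.71 ± 0.76, adjusted p = 0.0307). Neither granzyme had a count in the cultures. Plau, the urokinase that Serpinb2 inhibits, had 65.3 CPM in skin, 161 and 140 CPM in the papillomas, 209 CPM in the tumour, 139 CPM in mSCC-38 and 807 CPM in mSCC-20.

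The other serpin clades, 36 models of which 24 entered the fit, gave 2 higher and 4 lower in papillomas against skin, and 2 higher and 4 lower in the tumour against papillomas. These counts lie near the shares over all models, 12.0% higher and 14.1% lower in the papilloma comparison and 11.9% higher and 10.6% lower in the tumour comparison. Serpina9 rose by 3.85 ± 0.45 in papillomas, and Serping1, the complement C1 inhibitor, and Serpina3c had log2 fold changes of -2.06 ± 0.18 and -2.71 ± 0.69. In the tumour against papillomas, Serpina9, Serpina12 and Serpina3b had log2 fold changes of -5.84 ± 0.52, -5.54 ± 0.36 and -4.38 ± 0.52. Serpina10, the remaining one with a large fitted change, had 0.328 and 0.424 CPM in the papillomas and no count in the tumour.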

How the data were processed

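Libraries were prepared from Qiazol-extracted total RNA, using a kit meant for small RNA and SOLiD sequencers, per the labels' protocols. The authors deposited raw counts per gene model and library together with RPKM values, and the submitters' processing notes name mm9 as the build. How reads were aligned and counted, and whether by strand, is not given in the sources used here. Deposited RPKM were used only to compare levels between genes, and the sum of RPKM as an alternative.

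The deposited counts were scaled with TMM factors over all 6 libraries for CPM, with 0.5 CPM added in ratios. Tests used edgeR 4.0.16 in R 4.3.3 (filterByExpr, TMM, quasi-likelihood F test, Benjamini-Hochberg) on the 4 biopsies. The fit had 1 residual degree of freedom, 3.81 prior degrees of freedom from the trend over all models and a common dispersion of 0.0773. The standard error was the absolute log2 fold change divided by the square root of F. The script was tested on simulated counts. Single libraries were compared by a 4-fold difference with 10 CPM in the higher one and exact Clopper-Pearson intervals. Alternatives were DESeq2 1.42.0, other size factors, no filter, 6 libraries, summed copies, other pseudocounts and minimum levels, and each papilloma left out. Sequences came from RefSeq (GRCm38.p6) and GENCODE M21. A protein comparison was planned and not made, and transcripts were compared in its place.

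Members and lists were chosen with earlier results of these data known. A member with 10 CPM in a library was described in every library, others only if they passed the test; up to 4 called genes with the largest changes were named per list, and neighbours past 4-fold with 10 CPM. One gene that this rule names among the other serpins is not reported here. Treating Serpinb1 copies as a subfamily of their own was decided after the table was seen.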

Additional observations from a re-analysis of the deposited data

How the results depend on the processing

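Total counts moved the median log2 CPM ratio over all models from 0.07 to -0.37 in papillomas against skin, from 0.04 to 0.17 in the tumour against papillomas, from 0.11 to -0.21 in the tumour against skin and from -0.15 to -0.04 in mSCC-38 against mSCC-20, so the summed levels moved with it. In papillomas against skin, with total counts and with summed RPKM, the log2 ratio of the Serpinb1 copies was 2.71 and 2.61 in place of 3.12, that of the Serpinb6 copies -0.49 and -0.49 in place of -0.06, that of the Serpinb9 copies -0.13 and -0.14 in place of 0.28, that of the chromosome 1 cluster 0.99 and 1.19 in place of 1.42, and that of the chromosome 13 cluster 0.00424 and -0.0309 in place of 0.43; the single-copy sum was 0.78 with total counts in place of 1.21. In the tumour against papillomas the Serpinb1 sum was -0.28 and -0.27 in place of -0.41. Summing copies left fewer rows to call: 5 higher in papillomas (10 without summing) and 3 higher and 4 lower in the tumour (7 and 9). At a minimum of 2 CPM, 5 members in place of 3 were 4-fold lower in the tumour against skin, with Serpinb13 and Serpinb1c added. Across the other settings, 8 to 13 members were called higher and 3 lower in papillomas, and 6 to 8 higher and 8 to 10 lower in the tumour. No tested member changed direction while called. Calls gained elsewhere were those of Serpinb3d in both comparisons (no filter, DESeq2), Serpinb9c (no filter) and Serpinb9b (6 libraries) in the tumour. Leaving out 1 papilloma leaves no residual degrees of freedom; by size alone, 6 to 7 members were then 4-fold higher and 1 lower in papillomas, and 5 to 6 higher and 5 to 6 lower in the tumour. Without papilloma 1, Serpinb2 was lost and Serpinb3c gained; without papilloma 2, Serpinb3b was lost. No paired analysis was possible because only papilloma had more than 1 library and the groups share fewer than 2 replicate numbers. The cause of each of these moves was not tested beyond the scaling shift given.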
